A study of Mus musculus with 8 samples.

Results

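The genes described here are 10 members of the antioxidant programme of the transcription factor NRF2 in mouse embryonic stem cells: the gene of the factor itself, Nfe2l2, and 9 genes known as its targets, Nqo1, Cbr3, Gclc, Gclm, Slc7a11, Txnrd1, Srxn1, Hmox1 and Me1. They were taken from the count table by gene symbol, and all 10 were found among the 48440 genes of the count table and among the 17739 genes with enough counts to be tested. RNA from cells of 129/Ola background was measured by sequencing of polyadenylated RNA in 4 groups of 2 libraries each. Parental cells (CTNNB1+/+) and β-catenin knock-out cells (CTNNB1-/-) were each kept for 72 hours with the vehicle DMSO (0.3 μl/ml) or with CHIR99021 at 3 μM, an inhibitor of the kinase GSK3. All 4 groups shared a serum-containing medium and gelatin without feeder cells. The labels do not say whether the 2 libraries of a group came from separate cultures, and if they did not, the p-values reflect technical spread alone. They also do not say how many knock-out clones were used, so genotype and cell line cannot be told apart.

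NRF2 activates genes through antioxidant response elements in their regulatory DNA, which it binds together with a small MAF protein. In unstressed cells its protein is short-lived, because KEAP1 holds it and passes it to a CUL3 ubiquitin ligase; electrophiles and oxidants modify KEAP1 and let the protein build up. A second route to degradation runs through GSK3, which phosphorylates NRF2 so that the adaptor β-TrCP recognises it. BACH1 occupies the same elements as a repressor, with Hmox1 among its best known targets. None of these protein steps is read by RNA counts, which show only the levels of transcripts.

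To show the element that the programme is named for, promoter windows from RefSeq (GRCm38.p6, 250 bases before to 50 bases after a gene's start) were searched on both strands for its core, written TGACNNNGC. Such windows were found for 8 of the 10 genes, 11 windows in all, since some genes have several starts. A match was present in 5 windows, 1 in each of 5 genes, against 12.4% of all 32851 windows of the same length (4071 windows). The matches are shown on the gene's strand, 5′ to 3′, with 10 bases on each side and the core in capitals. In Nfe2l2 (chr2:75704885-75704913, minus strand) the core lies 240 to 232 bases before the start, and in Me1 (chr9:86695902-86695930, minus strand) it spans the start, from 6 bases before to 3 after it. In Gclm (chr3:122245413-122245441, plus strand) it lies 134 to 126 bases before the start, in Txnrd1 (chr10:82859104-82859132, plus strand, the second of 3 windows) 92 to 84 bases before, and in Srxn1 (chr2:152105542-152105570, plus strand) 29 to 37 bases after; these 3 read as the reverse complement.
Nfe2l2: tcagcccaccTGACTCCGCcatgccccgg
Me1: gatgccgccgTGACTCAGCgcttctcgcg
Gclm: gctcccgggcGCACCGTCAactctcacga
Txnrd1: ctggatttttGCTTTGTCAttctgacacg
Srxn1: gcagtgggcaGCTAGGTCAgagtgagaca
The windows of Nqo1, Cbr3 and Slc7a11 did not hold these letters, which says nothing about elements farther away. A match is a description of the sequence and not a measured binding site.

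The libraries held 23650572 to 27680649 estimated counts. Ctnnb1, the gene targeted in the knock-out, stood at 813 to 906 counts scaled by library size (CPM) in the 4 parental libraries and at 7.98 to 10.7 CPM in the 4 knock-out libraries. All 9 embryonic stem cell markers were expressed, with a summed level of 5356 to 6057 CPM per library, and with CHIR99021 1 of them was called higher and 6 lower in parental cells and 2 lower in the knock-out. Markers of other cell types moved with some groups. Summed primitive streak markers stood at 42.6 to 44.6 CPM in CHIR99021-treated parental cells and at 3.01 to 4.01 CPM in the other libraries, with 2 of 4 tested markers called higher after CHIR99021 in parental cells. Summed neural markers stood at 96.3 to 104.7 CPM in the 4 DMSO libraries, with Neurog2 at 0 throughout. With CHIR99021 they stood at 48.4 to 49.0 CPM in parental cells, with 4 of 4 tested markers called lower. In the treated knock-out they stood at 83.1 to 84.1 CPM, with 2 of 4 called lower (DESeq2 1, limma-voom 2). Endoderm markers, with Ttr at 0 in all libraries, summed to 28.4 to 31.6 CPM in the knock-out. In parental cells they summed to 22.6 to 23.2 CPM with DMSO and to 13.4 to 14.9 CPM with CHIR99021. Single members went different ways with CHIR99021 in parental cells. Mean Sox7 went from 14.1 to 4.74 CPM there and mean Pdgfra from 1.10 to 1.97 CPM. Of 5 tested endoderm markers 1 was called higher and 1 lower there (DESeq2 0 and 1). In the knock-out against parental cells, 3 of these 5 were called higher and 0 lower, both in DMSO and under CHIR99021. DESeq2 called 2 higher and 0 lower in DMSO, and 3 and 0 under CHIR99021. In DMSO, mean Gata4 was 10.6 CPM in the knock-out against 5.01 CPM in parental cells, and mean Dab2 5.24 against 2.05 CPM. Mean Pdgfra was 2.08 against 1.10 CPM and mean Gata6 0.909 against 0.467 CPM, while mean Sox7 was 12.1 against 14.1 CPM. Fibroblast markers, with Dcn, Lum and Postn at 0 throughout, summed to 5.11 to 5.93 CPM in parental cells with DMSO and 7.47 to 8.32 CPM with CHIR99021. They summed to 8.37 to 10.5 CPM in the knock-out. Most of this pattern was Thy1, with means of 3.84 and 6.07 CPM in parental cells with DMSO and CHIR99021, and 7.02 and 7.87 CPM in the knock-out. Mean Col1a1 stood at 1.53 to 1.85 CPM across the 4 groups. Trophoblast markers, with Prl3d1 at 0, summed to 47.1 to 50.1 CPM in the 4 DMSO libraries and to 36.6 to 42.2 CPM in the 4 CHIR99021 libraries. Of 3 tested markers 1 was called lower in each genotype. Nearly all of this sum was Tfap2c. Its mean went from 45.6 to 36.1 CPM in parental cells and from 45.5 to 35.7 CPM in the knock-out. The other trophoblast markers had group means of 2.51 CPM or less, and mean Krt7 went from 2.15 to 2.51 CPM in parental cells. The shares of all tested genes called in each comparison are given with the 10 genes below. The part of these markers in the results below was not tested, and in bulk RNA fewer cells of a type and less RNA per cell cannot be told apart.

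CHIR99021 raised 5 of the 10 genes in parental cells and 7 of the 10 in cells without β-catenin, and lowered Hmox1 in both. A gene was called changed at an adjusted p under 0.05 in edgeR's quasi-likelihood test, with adjustment over all 17739 genes. In parental cells 9.1% of all tested genes were called higher and 10.3% lower, and in the knock-out 2.88% and 4.18%. Nfe2l2, Nqo1, Cbr3, Txnrd1 and Me1 rose in both genotypes, and Gclc and Srxn1 passed the test in the knock-out. The median log2 fold change of the 10 genes was 0.12 for the parental comparison and 0.26 for the knock-out, where the medians of all tested genes were 0.004 and -0.003. The 2 CHIR99021 comparisons share no library, but all 8 libraries were fitted together with a common estimate of the spread. The calls in the 2 genotypes are therefore not independent. The 6 genes called in parental cells were all called in the same direction in the knock-out, which is 100% of the parental calls and 75% of the knock-out calls. Among them, the knock-out call of Hmox1 lay close to the threshold (edgeR, adjusted p = 0.0491) and was lost with DESeq2 (0.0754). Among all tested genes 683 were called in the same direction in both, 19.9% of the 3441 parental calls and 54.5% of the 1252 knock-out calls, and 40 in opposite directions.

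**Figure D1:**
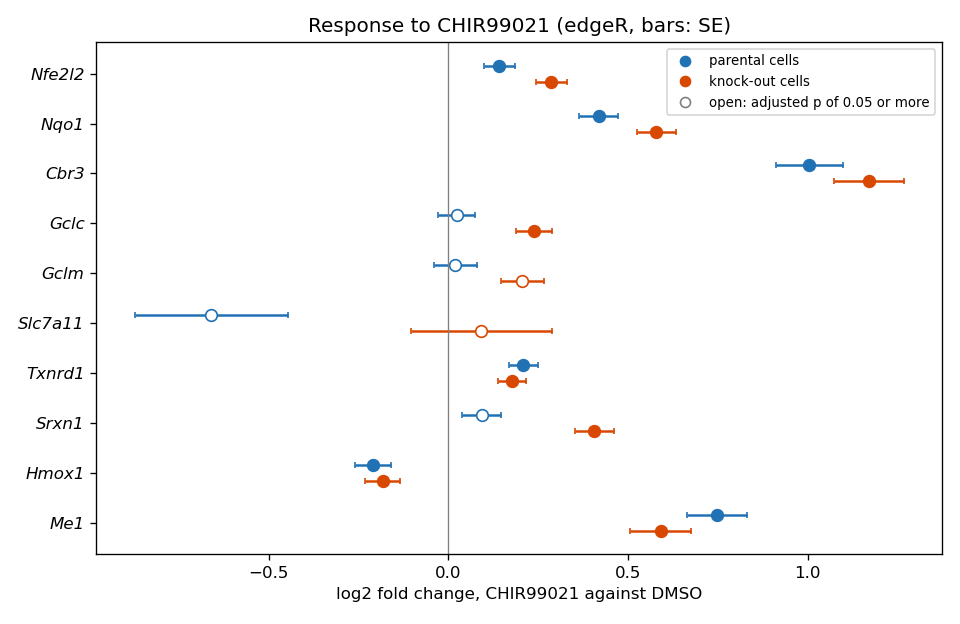
Log2 fold change of the 10 genes after CHIR99021 against DMSO (horizontal axis; points with SE) in parental and in β-catenin knock-out cells, with filled points for an adjusted p under 0.05 (edgeR). Cbr3 lies near 1 in both genotypes, Hmox1 lies below 0 in both, and Srxn1 lies near 0 in parental cells (0.09) and at 0.41 in the knock-out.

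Nfe2l2, the gene of NRF2 (ENSMUSG00000015839, GRCm38 chr2:75675513-75704641, minus strand), stood at 96.4 and 98.5 CPM in parental cells with DMSO and at 107 and 108 CPM with CHIR99021. In knock-out cells it stood at 93.0 and 96.8 CPM with DMSO and at 114 and 118 CPM with CHIR99021. All 4 treated libraries lay above all 4 vehicle libraries, and the treated knock-out libraries were the highest. It rose by a log2 fold change of 0.14 ± 0.04 (SE) in parental cells (edgeR, adjusted p = 0.0387) and of 0.29 ± 0.04 in the knock-out (adjusted p = 0.00312). The parental call was lost without parental DMSO library 1 or 2 (adjusted p = 0.206 and 0.108), parental CHIR99021 library 1 or 2 (0.110 and 0.159) or knock-out CHIR99021 library 1 or 2 (0.0570 and 0.0680), with DESeq2 (0.121), when genes with low counts were kept (0.0864) and when only the 2 groups were fitted (0.0517); over all alternatives it ranged from 0.0242 to 0.206.

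Both reductases of quinones and carbonyls rose in both genotypes. Nqo1 (ENSMUSG00000003849, chr8:107388225-107403206, minus strand) encodes NAD(P)H quinone dehydrogenase 1, which reduces quinones in 1 step and so avoids reactive semiquinones. It stood at 37.4 and 39.8 CPM in parental cells with DMSO, at 50.8 and 52.4 CPM with CHIR99021, at 40.0 and 38.1 CPM in knock-out cells with DMSO, and at 57.3 and 59.4 CPM with CHIR99021. The vehicle libraries of both genotypes overlapped, and the treated libraries lay above them in both. It rose 1.34-fold in parental cells (log2 0.42 ± 0.05, edgeR adjusted p = 0.000284) and 1.49-fold in the knock-out (0.58 ± 0.05, adjusted p = 0.000336).

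Cbr3 (ENSMUSG00000022947, chr16:93683215-93690990, plus strand) encodes carbonyl reductase 3, an NADPH-dependent enzyme. It stood at 8.29 and 8.09 CPM in parental cells with DMSO, at 17.2 and 15.6 CPM with CHIR99021, at 6.27 and 5.53 CPM in knock-out cells with DMSO, and at 13.4 and 13.2 CPM with CHIR99021. Its 4 groups did not overlap, with the knock-out below parental cells under both treatments. The rise with CHIR99021 was 2.01-fold in parental cells (log2 95% interval 0.80 to 1.21, edgeR adjusted p = 2.001e-05) and 2.25-fold in the knock-out (0.96 to 1.38, adjusted p = 0.000197). Among the 10 genes it had the largest fold change in both comparisons. It remained called under every alternative, which included a rule that also asked for a fold change over 2. In parental cells its log2 fold change ranged from 0.94 to 1.07 over the alternatives, close to that fold threshold. Its estimated counts were not whole numbers in 8 of 8 libraries, so some of its reads may be split with other genes.

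**Figure D2:**
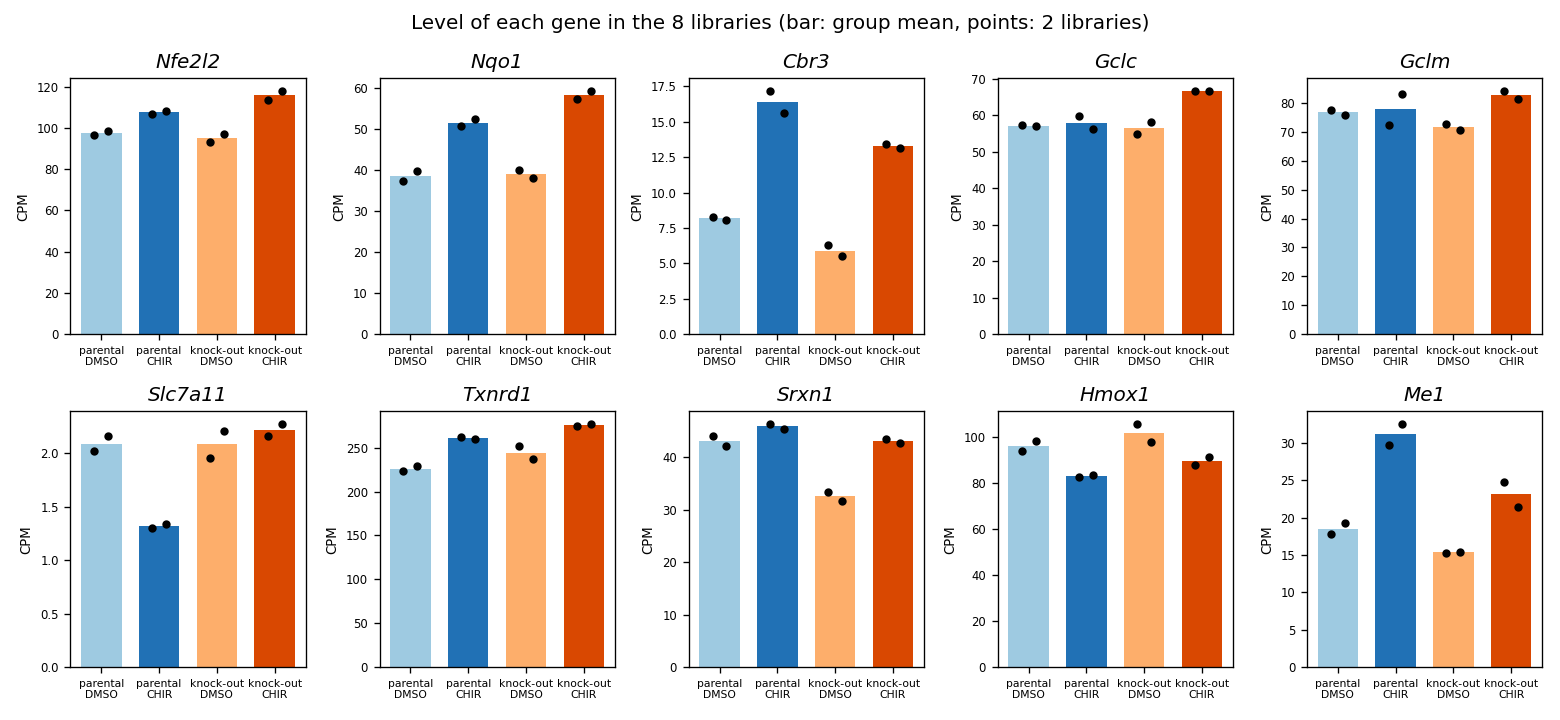
Level of each of the 10 genes in CPM (vertical axis, each panel with its own scale from 0), with a bar for the mean of a group and a point for each of its 2 libraries. Within each genotype, the treated libraries lie above the vehicle libraries for Nfe2l2, Nqo1, Cbr3, Txnrd1, Srxn1 and Me1, and below them for Hmox1.

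Of the 3 genes of glutathione supply, none passed the test with CHIR99021 in parental cells and 1, Gclc, passed it in the knock-out. Gclc and Gclm encode the catalytic and the modifier subunit of glutamate-cysteine ligase, the rate-limiting enzyme of glutathione synthesis. Gclc (ENSMUSG00000032350, chr9:77754535-77794485, plus strand) stood at 57.2 and 57.1 CPM in parental cells with DMSO, at 59.8 and 56.2 CPM with CHIR99021, at 55.0 and 58.1 CPM in knock-out cells with DMSO, and at 66.6 and 66.8 CPM with CHIR99021. The treated knock-out libraries lay above the other 6, which overlapped. Gclc rose in the knock-out by 0.24 ± 0.05 on the log2 scale (edgeR, adjusted p = 0.0185), and its difference in parental cells was 0.02 with a 95% confidence interval of -0.09 to 0.14 (adjusted p = 0.805). The knock-out call was lost without knock-out DMSO library 1 (adjusted p = 0.137) or knock-out CHIR99021 library 1 or 2 (0.109 and 0.124), with a range over the alternatives of 0.00237 to 0.137.

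Gclm (ENSMUSG00000028124, chr3:122245557-122270732, plus strand) stood at 77.5 and 76.1 CPM in parental cells with DMSO and at 72.6 and 83.1 CPM with CHIR99021, a spread that enclosed the vehicle libraries. In the knock-out it stood at 72.9 and 70.8 CPM with DMSO and at 84.4 and 81.3 CPM with CHIR99021, without overlap. Neither difference passed the test: it was 0.02 in parental cells (95% interval -0.11 to 0.15, edgeR adjusted p = 0.869) and 0.21 in the knock-out (0.07 to 0.34, adjusted p = 0.0654). The knock-out difference passed without a filter on low counts (adjusted p = 0.00745), with a stricter filter (0.0277), when only the 2 groups were fitted (0.0320) and without parental CHIR99021 library 1 or 2 (0.0269 and 0.0318); the largest value over the alternatives was 0.280.

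Slc7a11 (ENSMUSG00000027737, chr3:49892526-50443614, minus strand) encodes the cystine-glutamate antiporter subunit xCT, which brings in cystine for glutathione. It was the lowest of the 10, at 2.02 and 2.16 CPM in parental cells with DMSO, 1.30 and 1.34 CPM with CHIR99021, 1.96 and 2.21 CPM in the knock-out with DMSO, and 2.17 and 2.28 CPM with CHIR99021. The treated parental libraries lay below the other 6. The difference in parental cells, -0.66 ± 0.21 on the log2 scale (95% interval -1.13 to -0.19), missed the threshold (edgeR, adjusted p = 0.0520), and that in the knock-out was 0.09 (-0.34 to 0.52, adjusted p = 0.833).

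Txnrd1 and Srxn1 serve the thioredoxin and peroxiredoxin cycle. Txnrd1 (ENSMUSG00000020250, chr10:82833951-82897712, plus strand) encodes the cytosolic thioredoxin reductase, which restores thioredoxin with electrons from NADPH. It stood at 223 and 229 CPM in parental cells with DMSO, at 262 and 260 CPM with CHIR99021, at 252 and 237 CPM in the knock-out with DMSO, and at 275 and 278 CPM with CHIR99021. The treated libraries lay above the vehicle libraries of both genotypes. It rose by 0.21 ± 0.04 on the log2 scale in parental cells (edgeR, adjusted p = 0.00386) and by 0.18 ± 0.04 in the knock-out (adjusted p = 0.0251). The knock-out call was lost without knock-out DMSO library 2 (adjusted p = 0.0793) or knock-out CHIR99021 library 1 or 2 (0.117 and 0.143), with a range over the alternatives of 0.00401 to 0.143.

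Srxn1 (ENSMUSG00000032802, chr2:152105516-152111376, plus strand) encodes sulfiredoxin, which repairs over-oxidised peroxiredoxins. It stood at 44.0 and 42.2 CPM in parental cells with DMSO and at 46.5 and 45.5 CPM with CHIR99021. In the knock-out it stood at 33.5 and 31.7 CPM with DMSO and at 43.6 and 42.8 CPM with CHIR99021. The knock-out vehicle libraries stood apart below the other 6. Srxn1 rose by 0.41 ± 0.05 on the log2 scale in the knock-out (edgeR, adjusted p = 0.00178), and its difference in parental cells was 0.09 (95% interval -0.03 to 0.21, adjusted p = 0.272).

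Hmox1 (ENSMUSG00000005413, chr8:75093621-75100589, plus strand) encodes haem oxygenase 1, which opens the haem ring and releases iron. It was the only gene of the 10 called lower with CHIR99021. It stood at 94.0 and 98.4 CPM in parental cells with DMSO, at 82.8 and 83.6 CPM with CHIR99021, at 106 and 97.8 CPM in the knock-out with DMSO, and at 88.1 and 91.5 CPM with CHIR99021. The 4 treated libraries lay below the 4 vehicle libraries. It fell by 0.21 ± 0.05 on the log2 scale in parental cells (edgeR, adjusted p = 0.0132) and by 0.18 ± 0.05 in the knock-out (adjusted p = 0.0491). The parental call was lost without parental DMSO library 2 (adjusted p = 0.108) or parental CHIR99021 library 1 or 2 (0.0874 and 0.0598), within a range of 0.000753 to 0.108. The knock-out call was lost without any 1 of 7 of the 8 libraries (adjusted p = 0.0642 and 0.0659 for parental DMSO library 1 and 2, 0.0775 and 0.0734 for parental CHIR99021 library 1 and 2, 0.313 for knock-out DMSO library 1, 0.250 and 0.150 for knock-out CHIR99021 library 1 and 2), with DESeq2 (0.0754), other size factors (0.0510), a fit of only the 2 groups (0.0798) and the replicate block (0.0589), within a range of 0.00979 to 0.313.

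Me1 (ENSMUSG00000032418, chr9:86581371-86695953, minus strand) encodes the cytosolic malic enzyme, a source of NADPH. It stood at 17.9 and 19.2 CPM in parental cells with DMSO, at 29.7 and 32.6 CPM with CHIR99021, at 15.2 and 15.5 CPM in the knock-out with DMSO, and at 24.8 and 21.4 CPM with CHIR99021. Its 4 groups did not overlap, and treated parental cells had the highest level. Me1 rose 1.68-fold in parental cells (log2 0.75 ± 0.08, edgeR adjusted p = 8.02e-05) and 1.51-fold in the knock-out (0.59 ± 0.08, adjusted p = 0.00276).

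In vehicle, knock-out cells had lower Srxn1 and Cbr3 than parental cells, and 0 of the 10 genes were called higher (1 higher and 3 lower at an unadjusted p under 0.05 with edgeR). Of all tested genes 3.13% were called higher and 3.62% lower at the adjusted threshold. The share of all genes at the unadjusted threshold was not counted, so the unadjusted counts have no background. DESeq2 and limma-voom also called 0 of the 10 higher. Srxn1 was lower by a log2 fold change of -0.40 ± 0.05 (edgeR, adjusted p = 0.00187) and Cbr3 by -0.47 ± 0.10 (adjusted p = 0.0211). The Cbr3 call was lost without parental DMSO library 1 or 2 (adjusted p = 0.124 and 0.0858) or knock-out DMSO library 2 (0.119), with DESeq2 (0.107) and when only the 2 groups were fitted (0.0638), within a range of 0.00330 to 0.124. Me1 differed by -0.27 ± 0.09 and Txnrd1 by 0.11 ± 0.04, and neither passed the test (edgeR, adjusted p = 0.0964 and 0.135). Me1 passed when no filter on low counts was applied (edgeR, adjusted p = 0.0228). Nfe2l2 itself differed by -0.04 (95% interval -0.13 to 0.06, adjusted p = 0.677) and Nqo1 by 0.02 (-0.11 to 0.14, adjusted p = 0.909). Of the other 4 genes, Gclc differed by -0.02, Slc7a11 by -0.00, Gclm by -0.10 and Hmox1 by 0.08 on the log2 scale, none past the threshold.

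Under CHIR99021, 3 of the 10 genes were called higher in the knock-out and 2 lower, where 11.2% and 12.5% of all tested genes were called. Calls over all tested genes were also more frequent than in DMSO, at 4200 against 1198 genes. The larger number among the 10 is therefore not particular to them. Nqo1 was higher by 0.18 ± 0.05 on the log2 scale (edgeR, adjusted p = 0.0333), Gclc by 0.20 ± 0.05 (adjusted p = 0.0143) and Slc7a11 by 0.75 ± 0.21 (adjusted p = 0.0241). Me1 was lower, with a log2 fold change of -0.43 ± 0.08 (adjusted p = 0.00280), as was Cbr3 at -0.31 ± 0.09 (adjusted p = 0.0274). On the log2 scale, though not in CPM, Slc7a11 had the widest gap of these 5. Its levels were 1.32 ± 0.03 CPM (SD, n = 2) in treated parental cells against 2.22 ± 0.08 CPM (SD, n = 2) in the treated knock-out. They rest on few reads, with 33.6 and 31.7 estimated counts in the treated parental libraries and 60.6 and 58.9 in the treated knock-out. The other 5 genes did not pass the test: Nfe2l2 differed by 0.11 (adjusted p = 0.0934), Txnrd1 by 0.08 (0.178), Hmox1 by 0.11 (0.142), Gclm by 0.09 (0.310) and Srxn1 by -0.09 (0.254).

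Of these 5 calls, all but that of Me1 were lost when single libraries were left out. Without parental CHIR99021 library 1 or 2 and knock-out CHIR99021 library 1 or 2, in that order, the edgeR adjusted p of Nqo1 was 0.151, 0.0771, 0.0820 and 0.178, and that of Slc7a11 was 0.0983, 0.0776, 0.0762 and 0.106. Cbr3 was lost without parental CHIR99021 library 1 (0.211) or knock-out CHIR99021 library 1 or 2 (0.0932 and 0.130), and Gclc without parental CHIR99021 library 2 (0.115) or knock-out CHIR99021 library 1 or 2 (0.0765 and 0.0808). With DESeq2 Nqo1 (adjusted p = 0.135), Cbr3 (0.213) and Slc7a11 (0.198) were not called; over all alternatives the adjusted p ranged from 0.0128 to 0.178 for Nqo1, 0.0210 to 0.213 for Cbr3, 0.00471 to 0.115 for Gclc and 0.0238 to 0.198 for Slc7a11. In the other direction, a stricter filter on low counts called Nfe2l2 (0.0312) and Hmox1 (0.0465), and leaving out parental CHIR99021 library 2 called Gclm (0.0497).

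**Figure D3:**
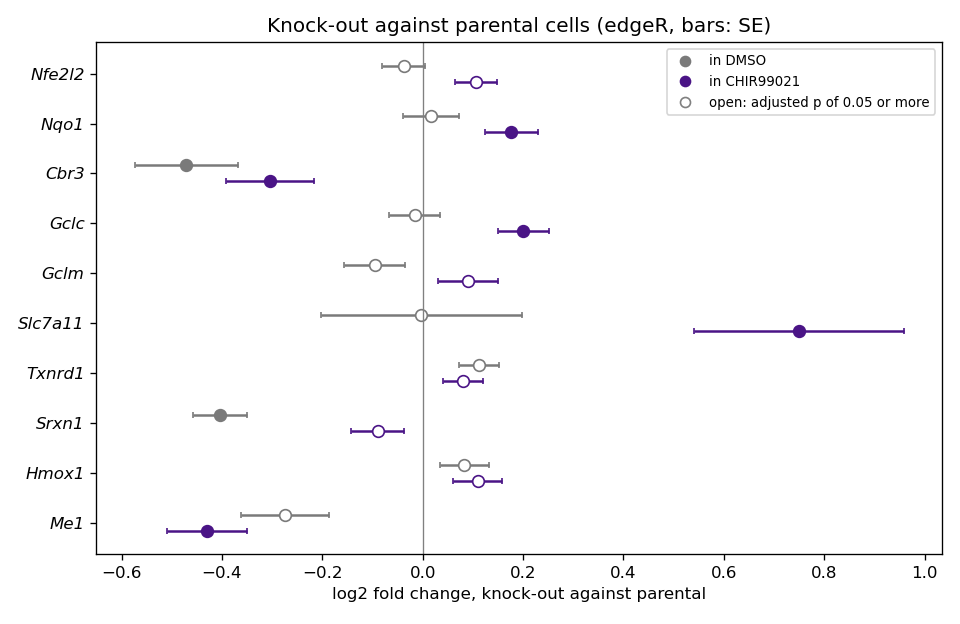
Log2 fold change of the 10 genes in knock-out against parental cells (horizontal axis; points with SE) in DMSO and in CHIR99021, with filled points for an adjusted p under 0.05 (edgeR). Srxn1 lies at -0.40 in DMSO and at -0.09 in CHIR99021, and Slc7a11 at -0.00 in DMSO and at 0.75 in CHIR99021.

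The difference between the responses of the 2 genotypes was tested directly as an interaction. Of the 10 genes 1 was called, Srxn1, whose response was larger in the knock-out by 0.31 ± 0.08 on the log2 scale (95% interval 0.15 to 0.48, edgeR adjusted p = 0.0338); 3.22% of all tested genes were called with a larger and 2.91% with a smaller response. None was called with a smaller response by edgeR, DESeq2 or limma-voom (0 at an unadjusted p under 0.05), and 4 had a larger response at an unadjusted p under 0.05. These unadjusted counts cannot be set against a background, since the share of all genes at that threshold was not counted. The Srxn1 levels behind this call are 43.1 ± 1.28 and 46.0 ± 0.689 CPM in parental cells with DMSO and CHIR99021, and 32.6 ± 1.27 and 43.2 ± 0.586 CPM in the knock-out (SD, n = 2 each). The call was lost without any 1 of 7 of the 8 libraries, with an adjusted p of 0.136 and 0.0678 without parental DMSO library 1 and 2, 0.0709 and 0.0922 without parental CHIR99021 library 1 and 2, 0.0758 without knock-out DMSO library 2, and 0.115 and 0.0899 without knock-out CHIR99021 library 1 and 2. It was also lost with DESeq2 (0.162), and over all alternatives the adjusted p ranged from 0.0159 to 0.162.

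For the other 9 genes the response was not shown to differ between the genotypes. This covers Gclc, called in the knock-out and not in parental cells, with a difference in response of 0.22 ± 0.07 (95% interval 0.06 to 0.37, edgeR adjusted p = 0.110). For Slc7a11 the difference was 0.75 ± 0.29 (0.11 to 1.39, adjusted p = 0.168), for Nfe2l2 0.14 ± 0.06 (adjusted p = 0.199), for Gclm 0.19 ± 0.09 (0.243) and for Nqo1 0.16 ± 0.08 (0.269). Cbr3 (0.17 ± 0.14), Me1 (-0.16 ± 0.12), Hmox1 (0.03 ± 0.07) and Txnrd1 (-0.03 ± 0.06) had adjusted p of 0.545, 0.512, 0.881 and 0.813.

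Of the genes that control NRF2, 16 of 17 listed could be tested. The counts of this and the later lists stand against the shares of all tested genes called higher and lower. With CHIR99021 these were 9.1% and 10.3% in parental cells and 2.88% and 4.18% in the knock-out. Between the genotypes they were 3.13% and 3.62% in DMSO and 11.2% and 12.5% under CHIR99021. CHIR99021 raised 4 and lowered 0 of them in parental cells (5 and 1 at an unadjusted p under 0.05; limma-voom also 4 and 0, DESeq2 3 and 0), and raised 1 and lowered 1 in the knock-out (limma-voom also 1 and 1, DESeq2 1 and 0). The median log2 fold change of the list was 0.06 and 0.04. Bach1, the repressor that competes at antioxidant response elements, rose in both genotypes, from 40.4 ± 0.0730 to 48.8 ± 1.60 CPM in parental cells (SD, n = 2; log2 0.27 ± 0.05, edgeR adjusted p = 0.00305) and from 38.8 ± 0.636 to 50.7 ± 0.406 CPM in the knock-out (0.39 ± 0.05, adjusted p = 0.00155). Keap1, which holds NRF2 for degradation, rose in parental cells by 0.26 ± 0.07 (adjusted p = 0.0239), as did Sqstm1, whose protein p62 sequesters KEAP1, by 0.24 ± 0.04 (0.00246). Bach2, a paralogue of Bach1, went from 4.08 ± 0.247 to 10.6 ± 0.134 CPM in parental cells (1.38 ± 0.14, adjusted p = 3.03e-05) and from 3.65 ± 0.552 to 2.51 ± 0.113 CPM in the knock-out, a difference in response of -1.92 ± 0.21 (adjusted p = 0.000248). Syvn1, which encodes a ubiquitin ligase of the endoplasmic reticulum, fell in the knock-out by 0.26 ± 0.06 on the log2 scale (adjusted p = 0.0264), the lower call that DESeq2 did not make.

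Between the genotypes 1 regulator was called higher and 0 lower in DMSO (3 and 0 at an unadjusted p under 0.05), and 0 higher and 2 lower under CHIR99021 (1 and 3). Limma-voom gave the same counts, and DESeq2 gave 0 and 0 in DMSO and 0 and 1 under CHIR99021. Sqstm1 was higher in the knock-out in DMSO by 0.18 ± 0.04 on the log2 scale (edgeR, adjusted p = 0.0337). Bach2 (-2.08 ± 0.14, adjusted p = 1.92e-06) and the small MAF gene Maff (-0.43 ± 0.14, adjusted p = 0.0400) were lower in the knock-out under CHIR99021.

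Other glutathione genes, 29 of 34 tested, gave 5 higher and 3 lower calls with CHIR99021 in parental cells and 2 higher and 0 lower in the knock-out (5 and 2 at an unadjusted p under 0.05; DESeq2 and limma-voom also 2 and 0). Ggt1, which starts the breakdown of extracellular glutathione, rose in parental cells by 1.80 ± 0.15 on the log2 scale (edgeR, adjusted p = 7.48e-06), and Gss, glutathione synthetase, by 0.62 ± 0.06 (3.25e-05). Both responses were smaller in the knock-out, with interaction terms of -1.38 ± 0.22 (adjusted p = 0.00304) and -0.47 ± 0.09 (0.00942). The transporter gene Abcc4 fell in parental cells by 0.39 ± 0.04 and rose in the knock-out by 0.17 ± 0.04 (adjusted p = 8.57e-05 and 0.0404; interaction 0.56 ± 0.06, adjusted p = 0.000280). In DMSO the list had 4 higher and 2 lower calls in the knock-out and under CHIR99021 7 and 5, where DESeq2 gave 2 and 2 in DMSO and 3 and 4 under CHIR99021 (limma-voom 4 and 2, and 6 and 5). Gstp1, a glutathione transferase, was higher in DMSO by 0.33 ± 0.06 (adjusted p = 0.00690), though reads of Gstp1 and its near copies may be split uncertainly.

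Peroxidase and thioredoxin genes, 25 of 27 tested, gave 2 higher and 5 lower calls in parental cells and 2 and 2 in the knock-out with CHIR99021 (DESeq2 1 and 5, and 2 and 3). Catalase, Cat, rose in both, by 0.34 ± 0.05 (edgeR, adjusted p = 0.000338) and 0.38 ± 0.05 (0.00115) on the log2 scale. Sod2, the mitochondrial superoxide dismutase, fell in both, by 0.22 ± 0.04 (adjusted p = 0.00496) and 0.20 ± 0.04 (0.0204). Txnip, which binds and inhibits thioredoxin, fell in parental cells by 0.31 ± 0.04 (adjusted p = 0.000286), with an interaction term of 0.41 ± 0.06 (0.00137). Between the genotypes the list had 2 higher and 3 lower calls in DMSO, where 3.13% and 3.62% of all tested genes were called. Under CHIR99021 it had 3 and 5, where 11.2% and 12.5% were called.

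The 14 tested genes of NADPH production other than Me1 had 2 higher and 3 lower calls in parental cells with CHIR99021 (DESeq2 1 and 2, limma-voom 2 and 3). In the knock-out none was called (0 higher and 1 lower at an unadjusted p under 0.05 with edgeR; DESeq2 and limma-voom called 0). Nnt, the mitochondrial transhydrogenase, fell by 0.54 ± 0.06 on the log2 scale (edgeR, adjusted p = 8.92e-05) and the folate enzyme gene Aldh1l1 rose by 0.74 ± 0.13 (0.00255) in parental cells. The 11 genes of iron and haem handling other than Hmox1 had 4 higher calls and 1 lower in parental cells (DESeq2 2 and 1, limma-voom 3 and 1) and none in the knock-out (2 higher and 0 lower at an unadjusted p under 0.05; DESeq2 and limma-voom called 0). Blvrb, a biliverdin reductase, and Ftl1, the ferritin light chain, rose in parental cells by 0.62 ± 0.09 (adjusted p = 0.000699) and 0.51 ± 0.08 (0.000703).

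Further genes of quinone, carbonyl and xenobiotic reduction, 15 of 27 tested, gave 3 higher and 3 lower calls in parental cells and 2 and 2 in the knock-out with CHIR99021 (DESeq2 2 and 3, and 1 and 2). Ptgr1, prostaglandin reductase 1, rose in both by 0.58 ± 0.06 (edgeR, adjusted p = 3.89e-05) and 0.50 ± 0.06 (0.000838) on the log2 scale. Ephx2, soluble epoxide hydrolase, rose by 0.89 ± 0.05 in parental cells (adjusted p = 8.19e-07) and fell by 0.39 ± 0.06 in the knock-out (0.00290), with an interaction term of -1.28 ± 0.08 (4.96e-06). Nqo2, the paralogue of Nqo1, fell in parental cells by 0.38 ± 0.07 (adjusted p = 0.00180). Under CHIR99021 the list had 6 higher and 2 lower calls in the knock-out against parental cells, and in DMSO 2 and 1. Limma-voom gave 7 and 2 under CHIR99021, but DESeq2 gave 1 and 2, without the excess of higher calls, and 1 and 1 in DMSO.

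**Figure D4:**
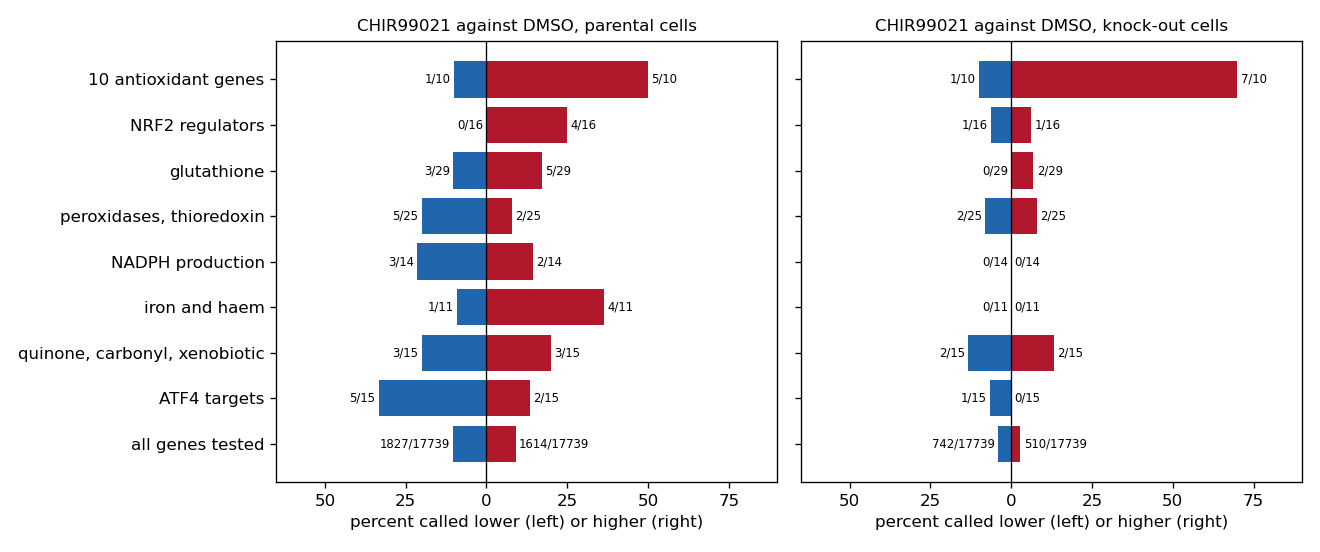
Share of the tested genes of each list, in percent, called lower (to the left) or higher (to the right) with CHIR99021 against DMSO in parental and in knock-out cells at an adjusted p under 0.05 (edgeR), with the share over all tested genes as background. The 10 antioxidant genes have 5 higher calls and 1 lower in parental cells and 7 and 1 in the knock-out.

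Across the 8 libraries the 10 genes varied with each other to different degrees. Over the 45 pairs, Pearson's r of log2 CPM ran from -0.94 (Hmox1 with Me1) to 0.97 (Nfe2l2 with Nqo1), with 0.95 for Cbr3 with Me1 and -0.92 for Cbr3 with Hmox1. These are descriptions over 8 libraries that share the same 4 group means. Within groups the 2 libraries lay close together, with coefficients of variation from 0.187% (Gclc, knock-out with CHIR99021) to 10.2% (Me1, knock-out with CHIR99021). By the same measure, with the 10 genes and genes with clone names left out, the genes most like Cbr3 were Gak (r = 0.996), Apoe (0.992) and Neu1 (0.985). Those most like Nqo1 were Laptm5 (0.983), Exoc4 (0.977) and Ctsl (0.976), and those most like Nfe2l2 were Dpp8 (0.981), Etnk1 (0.977) and Ccnt1 (0.976).

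Per kilobase of exon sequence (GENCODE M21, GRCm38), Hmox1 had the highest level of the 10 in parental cells with DMSO, at 54.9 ± 1.78 CPM per kb (SD, n = 2). Txnrd1 followed at 31.9 ± 0.542 CPM per kb, then Nfe2l2 at 25.7 ± 0.381 and Nqo1 at 24.9 ± 1.09, whose libraries overlapped. Srxn1 at 15.3 ± 0.453 and Gclc at 15.2 ± 0.0324 CPM per kb also overlapped, and Gclm stood at 12.2 ± 0.161. Cbr3 at 6.53 ± 0.110, Me1 at 4.82 ± 0.249 and Slc7a11 at 0.150 ± 0.00711 CPM per kb were the lowest. The length of all exons of a gene was used, so genes with long rarely used exons, such as Slc7a11 with 13922 bases, may be set too low. Some annotated genes that were tested overlap 3 of the 10. Gm17494 and Gm37854 lie on the strand opposite to Gclm and Slc7a11, and Eid3 on the same strand as Txnrd1. The estimated counts of Txnrd1 were whole numbers in all 8 libraries, so they show no split of reads with another gene. Those of Gclm, Slc7a11, Cbr3 and Me1 were not whole in 8 of 8 libraries, so some of their reads may be split with other genes.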

How the data were processed

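RNA of 8 libraries was sequenced from TruSeq Stranded mRNA preparations. The authors deposited a table of estimated counts per gene, made with kallisto on GRCm38.p4 per the submitters' processing notes; its version, transcript set and strand setting are not given in the sources used here. After rounding to integers, genes were filtered with filterByExpr of edgeR 4.0.16 (at least 10 counts, 15 in total), libraries were scaled by trimmed mean of M values, and the 4 group means were estimated together over the 8 libraries by quasi-likelihood (4 residual degrees of freedom, common biological coefficient of variation 0.0532). P-values from 2-sided F tests were adjusted by Benjamini and Hochberg over 17739 genes. Counts at an unadjusted p under 0.05 are given without a share over all genes, which was not counted. SE was taken as the size of the log2 change over the square root of F. The chi-square per degree of freedom between libraries of 1 group was 3.26 to 4.86, above counting noise.

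The 10 genes, the pathway lists and the markers were chosen with earlier results of these data known. From each pathway list, up to 4 called genes per comparison with the smallest adjusted p could be named. The most similar genes were the 3 with the highest r for each of Nqo1, Cbr3 and Nfe2l2. The 10 genes themselves and genes with clone names, such as those starting with Gm, were left out of that ranking. The procedure was tested on simulated data in which every gene had the same spread. Real genes differ in spread, so that run cannot show how sure the calls near the threshold are. Alternatives, 17 per comparison where all could be fitted, used DESeq2 1.42.0, limma-voom (limma 3.58.1), other size factors, filters, thresholds and samples, a replicate block, and each library left out. R was 4.3.3.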

Additional observations from a re-analysis of the deposited data

Results flagged for a closer look

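The response of Srxn1 to CHIR99021 differed between the genotypes in the interaction test. The log2 fold change was 0.41 ± 0.05 in the knock-out and 0.09 ± 0.05 in parental cells, a difference (knock-out minus parental) of 0.314, with an edgeR adjusted p of 0.0338. The 2 knock-out libraries with DMSO, at 33.5 and 31.7 CPM, were the lowest of the 8, and the 6 others lay between 42.2 and 46.5 CPM. With 2 libraries per group, no group was large enough to be examined for outlying samples.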

How the results depend on the processing

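No called difference of the 10 genes changed direction under any alternative. Of the single-gene values, 736 kept their status, which includes those not called before or after. A call was lost in 90 and gained in 9. With a fold change over 2 asked for as well, the calls of the 10 genes were 1 higher and 0 lower with CHIR99021 in each genotype, and 0 in the other comparisons. With an adjusted p under 0.01, CHIR99021 lowered 0 in either genotype, the knock-out had 1 lower in DMSO, 0 higher and 1 lower under CHIR99021, and the interaction had 0. DESeq2 called 0 lower with CHIR99021 in the knock-out, 1 lower for the knock-out in DMSO, 1 higher and 1 lower under CHIR99021, and 0 for the interaction. With the compared groups alone, 0 were lower with CHIR99021 in the knock-out and 1 was lower for the knock-out in DMSO; with other size factors 0 were lower with CHIR99021 in the knock-out. Leaving out 1 library gave 4 to 5 higher and 0 to 1 lower with CHIR99021 in parental cells, 5 to 8 and 0 to 1 in the knock-out, 1 to 2 lower for the knock-out in DMSO, 0 to 3 higher and 1 to 2 lower under CHIR99021, and 0 to 1 higher for the interaction. The replicate block left 0 lower with CHIR99021 in the knock-out and changed no other count of the 10; same-numbered libraries did not deviate together (r from -0.06 to 0.10 between groups). Over all genes, the calls with CHIR99021 in parental cells were 3441, and 2205 with DESeq2, 1897 at 0.01, 558 with the fold rule and 2057 to 3507 without 1 library. With CHIR99021 in the knock-out they were 1252, and 2167 without a filter, 342, 50 and 307 to 1237. For the knock-out in DMSO they were 1198, and 795 with DESeq2, 2064 without a filter, 411, 79 and 357 to 1047. Under CHIR99021 they were 4200, and 2709 with DESeq2, 2403, 592 and 2509 to 4353. For the interaction they were 1087, and 1990 without a filter, 509, 240 and 605 to 1143. Slc7a11 did not pass the stricter filter and has no value there, and the interaction needs all 4 groups, so it was not run with fewer. At 1 to 2 CPM, Slc7a11 had the widest errors of the 10.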

Other observations

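Slc7a11 is also a target of ATF4, the factor of the amino-acid response, and 15 genes of that response were listed and tested. With CHIR99021 in parental cells 2 were called higher and 5 lower (edgeR, adjusted p under 0.05), with a median log2 fold change of -0.07. Of all tested genes 9.1% and 10.3% were called there. Asns, asparagine synthetase, rose by 0.63 ± 0.04 (adjusted p = 2.52e-06), while Slc38a2, a transporter of neutral amino acids, fell by 0.55 ± 0.04 (4.31e-06), Trib3 by 0.41 ± 0.06 (0.000884) and Chac1, which cleaves glutathione, by 0.51 ± 0.08 (0.00149). In the knock-out 0 were called higher and 1 lower (4 and 2 at an unadjusted p under 0.05 with edgeR; DESeq2 1 and 1, limma-voom 0 and 1), and that gene was Slc38a2, which fell by 0.21 ± 0.04 (adjusted p = 0.0133).

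Between the genotypes the same list had 1 higher and 6 lower calls in the knock-out in DMSO, and 3 and 7 under CHIR99021. Of all tested genes 3.13% and 3.62% were called in DMSO, and 11.2% and 12.5% under CHIR99021. In DMSO, Chac1 was at -0.81 ± 0.09 on the log2 scale (edgeR, adjusted p = 0.000491), Trib3 at -0.37 ± 0.06 (0.00589), Asns at -0.27 ± 0.04 (0.00577) and Psat1, an enzyme of serine synthesis, at -0.22 ± 0.04 (0.00416). Under CHIR99021 Asns was at -0.74 ± 0.04 (6.9e-07), while Sesn2 (0.34 ± 0.04, adjusted p = 0.000200), Cth (0.35 ± 0.05, 0.000529), an enzyme of cysteine synthesis, and Slc38a2 (0.29 ± 0.04, 0.000472) were higher, as was Slc7a11. The response to CHIR99021 differed between the genotypes for Asns (-0.48 ± 0.06, adjusted p = 0.000942) and Slc38a2 (0.34 ± 0.06, 0.00513).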
